A study of Mus musculus with 6 samples.

Results

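Immediate early genes are transcribed within minutes of a stimulus, without the need for new protein synthesis, and 10 of them were examined in mouse RPE/choroid: *Fos*, *Fosb*, *Jun*, *Junb*, *Egr1*, *Egr3*, *Ier2*, *Atf3*, *Nr4a1* and *Dusp1*. They were chosen by name, as genes known to respond to tissue handling and stress, and all 10 were found by symbol among the 33924 genes of the deposited table. RPE/choroid is the retinal pigment epithelium, the pigmented layer that supports the photoreceptors, together with the vessels, fibroblasts and melanocytes beneath it. The tissue was scraped by hand from opened eyecups after the mice had been killed, and a pair of eyes was pooled for each library. There were 3 libraries of young and 3 of aged C57BL/6J mice, with no treatment or engineered allele. The young mice were 1 to 2 months old by the labels, although the text of the study puts them somewhat later, and the aged mice 20 to 24 months old by the titles and 22 to 24 months old by the time label. Every library is labelled male, although the study describes the use of mice of both sexes. The libraries held total RNA without ribosomal RNA and without selection for poly(A) tails.

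The level of a gene is given here as the authors' mean over all 6 libraries, in normalized counts. Young and aged mice both enter that mean, and it carries no value per mouse. No SD, no depth per library and no test of age could therefore be given, and each level below describes the tissue of both ages together. The authors' own fold changes and p-values between the ages were not used. Counts grow with the length of a transcript, so levels are compared between genes in normalized counts per kilobase (kb) of the longest annotated transcript. The methods of the study derive the normalized counts from TPM, a relative abundance of transcripts whose values are already divided by length. Its results describe a comparison of read counts with the tool DESeq2, which also gave the mean used here. Whether the deposited means still scale with length was not tested. If they do not, the undivided means are the fitting scale, so the members' means are printed beside their values per kb, and several comparisons are also given without the division.

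Products of immediate early genes fall into a few classes. *Fos* and *Fosb* encode leucine-zipper proteins that pair with the products of *Jun* and *Junb* to form the transcription factor AP-1, and *Atf3* encodes a stress-induced factor of the same zipper class. *Egr1* and *Egr3* encode zinc-finger transcription factors and *Nr4a1* an orphan nuclear receptor. *Dusp1* encodes a phosphatase that switches off the MAP kinases, and *Ier2* encodes a short-lived nuclear protein. Transcription is triggered by MAP kinases and cyclic AMP through factors that are already present in the cell. Among them are Srf, which binds the CArG box and works with Elk partners, and Creb1, which binds the cyclic AMP response element (CRE). Many of the mRNAs decay fast through AU-rich elements in their 3' UTR.

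The promoters of 7 members were in the RefSeq promoter table (build GRCm38.p6), which gives 250 bases before and 50 after each start site. *Egr1*, *Egr3* and *Ier2* had no window there, so their promoters were not searched. Those of *Fos*, *Fosb*, *Nr4a1* and *Dusp1* are shown because the CRE half-site TGACG, or CGTCA on the other strand, was found in 6 of the 7 windows. Capitals mark that half-site in all 4 sequences, the whole CRE TGACGTCA in *Dusp1* and the motif TATAAA in *Fos*. Each is written 5' to 3' on the strand of its gene and stops at the base before the start site.
Fos, chr12:85473640-85473889, plus strand: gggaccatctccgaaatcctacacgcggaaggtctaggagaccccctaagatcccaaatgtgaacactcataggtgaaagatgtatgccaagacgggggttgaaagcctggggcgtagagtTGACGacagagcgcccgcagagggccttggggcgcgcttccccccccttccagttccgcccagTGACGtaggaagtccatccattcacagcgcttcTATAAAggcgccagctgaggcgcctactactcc
Fosb, chr7:19310046-19310295, minus strand: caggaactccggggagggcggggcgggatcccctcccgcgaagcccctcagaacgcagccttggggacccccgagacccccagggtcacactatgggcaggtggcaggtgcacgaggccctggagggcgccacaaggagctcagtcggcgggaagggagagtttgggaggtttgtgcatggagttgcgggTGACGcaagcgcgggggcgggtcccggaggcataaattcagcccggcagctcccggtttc
Nr4a1, chr15:101266596-101266845, plus strand: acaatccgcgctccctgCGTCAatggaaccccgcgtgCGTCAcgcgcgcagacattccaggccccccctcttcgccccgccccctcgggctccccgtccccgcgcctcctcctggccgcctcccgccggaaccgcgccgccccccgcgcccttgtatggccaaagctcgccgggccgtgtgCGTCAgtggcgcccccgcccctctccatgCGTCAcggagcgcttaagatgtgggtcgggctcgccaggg
Dusp1, chr17:26508473-26508722, minus strand: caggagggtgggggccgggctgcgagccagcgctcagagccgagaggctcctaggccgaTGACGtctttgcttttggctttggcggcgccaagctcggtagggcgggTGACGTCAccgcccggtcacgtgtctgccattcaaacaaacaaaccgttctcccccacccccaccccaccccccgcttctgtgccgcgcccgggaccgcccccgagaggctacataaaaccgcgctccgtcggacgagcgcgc

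The half-site occurred in 6 of the 7 windows and in 20.8% of all 32851 promoter windows of the same length, on either strand. *Nr4a1* held 4 matches, which began 233, 213, 69 and 40 bases before its start site. *Fos* held 2, at 129 and 66 bases before the start site. *Dusp1* held 3, and 2 of these overlap as the opposite strands of 1 whole CRE that begins 143 bases before the start site. The whole CRE was found in 1 of the 7 windows and in 1.79% of all windows. *Jun* was the one of the 7 without a half-site. TATAAA was found in 2 of the 7 windows and in 13.6% of all windows. In *Fos* it began 33 bases before the start site. In *Junb* it began at base 1 after the RefSeq start site, which lies upstream of the gene's start in GENCODE, at 84978718. Whether it stands before or after the start of *Junb* therefore depends on the annotation.

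Other motifs were searched on both strands in the same windows. The GC box GGGCGG was found in 6 of the 7 windows, with 16 matches, and in 35.7% of all windows. CCAAT was found in 3 of the 7 windows and in 37.4% of all windows. The Egr site GCGNGGGCG was found in 2 windows, those of *Fosb* and *Nr4a1*, and in 5.55% of all windows, and in both of these a GC box overlaps it. The CArG box was searched as CCWWWWWWGG, with W for A or T, so a near match with another base was not counted. It and the AP-1 site TGANTCA each had 0 matches in the 7 windows, against 1.63% and 7.81% of all windows with a match. The members without a window are not covered by this. A window of 300 bases does not reach more distant elements, and a match is a run of letters and not a measured binding site.

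**Figure D1:**
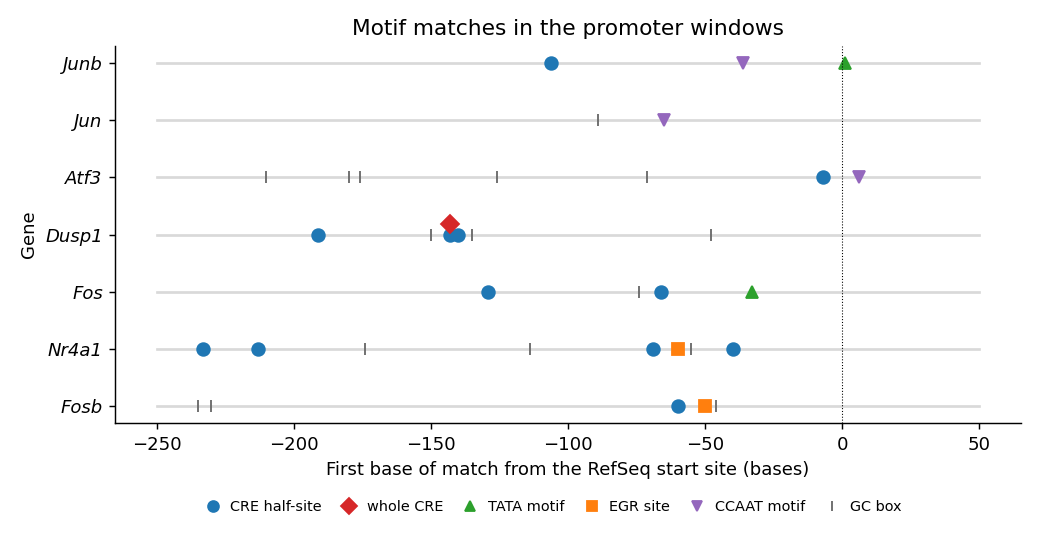
Motif matches in the 7 promoter windows. The x axis gives the first base of each match in bases from the RefSeq start site and each line is 1 gene, with symbols for the motifs on either strand; 6 of the 7 genes carry a CRE half-site, and *Nr4a1* carries 4.

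Of the members, 8 had moderate levels and the other two were lower. The 8 had means of 212 to 714 normalized counts, and *Fosb* and *Egr3* had 20.6 and 6.88. Per kb of transcript, the 8 ran from 340 for *Junb* to 73.8 for *Egr1*, a ratio of 4.61. From highest to lowest, the same 8 spanned a ratio of 6.06 per coding length, from *Jun* to *Nr4a1*, and 3.37 between undivided means, again from *Jun* to *Nr4a1*. The next gene, *Fosb*, stood 13.6 times below the lowest of the 8 per kb and 10.3 times below it without division. Per coding length this gap was 5.79 times, which is less than the range of the 8. *Junb* and *Egr3*, the highest and the lowest member per kb, differed by a ratio of 195, which was 101 per coding length and 89.4 between undivided means.

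The Jun genes led the order per kb of longest transcript, and the Fos genes stood lower. *Junb*, on chromosome 8 at 84974484 to 84978718 (GRCm38), had a mean of 615 normalized counts, or 340 per kb. *Jun*, on chromosome 4 at 95049034 to 95052222, had the highest mean, 714 normalized counts, and 224 per kb. *Fos*, on chromosome 12 at 85473890 to 85477273, had 227 normalized counts, or 108 per kb. Per kb, *Junb* exceeded *Fos* 3.16 times and *Jun* exceeded *Fos* 2.08 times, and the latter ratio was 3.58 per coding length and 3.15 between undivided means. *Fosb*, on chromosome 7 at 19302696 to 19310051, had 20.6 normalized counts, or 5.44 per kb, which is 19.8 times less than *Fos* per kb. This ratio was 29.3 with merged exons, 9.81 per coding length and 11.0 between undivided means. The product of *Fosb* is the Fos protein known for persisting, in its truncated form, after repeated stimulation of neurons.

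*Atf3*, on chromosome 1 at 191170296 to 191218039, had a mean of 385 normalized counts, or 194 per kb, next after *Jun* in the order. *Egr1*, on chromosome 18 at 34859823 to 34864984, had 331 normalized counts, which its long transcript turned into 73.8 per kb. *Egr3*, on chromosome 14 at 70077203 to 70082614, had 6.88 normalized counts and 1.75 per kb, 42.2 times less than *Egr1* per kb. *Nr4a1*, on chromosome 15 at 101254269 to 101274795, had 212 normalized counts, or 83.1 per kb.

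The inhibitor and the small nuclear protein stood in the middle. *Dusp1*, on chromosome 17 at 26505590 to 26562128, had a mean of 364 normalized counts, or 157 per kb. *Ier2*, on chromosome 8 at 84661331 to 84662852, had 233 normalized counts, or 153 per kb. These 2 levels differ by a ratio of 1.03 per kb and 1.56 undivided, and with no spread over mice their order cannot be told. The ratios between the other neighbours in the upper 8 ran from 1.13, for *Nr4a1* over *Egr1*, to 1.52, for *Junb* over *Jun*, per kb. None of these neighbours could be tested.

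**Figure D2:**
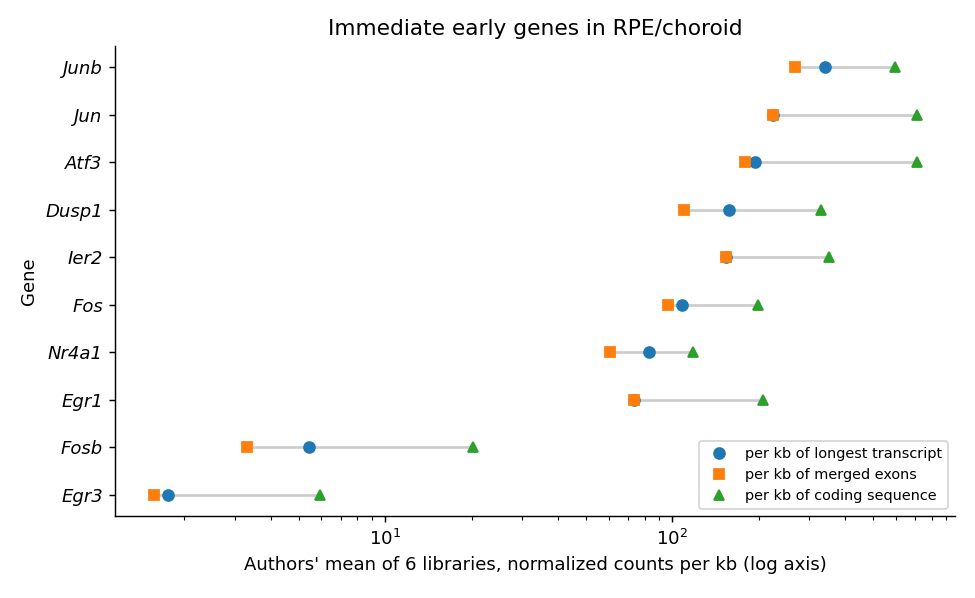
Level of each of the 10 genes, as the authors' mean over 6 libraries in normalized counts per kb on a log axis. Circles divide by the longest transcript, squares by merged exons and triangles by the coding sequence; the lines join the 3 values of a gene and are not an error. *Fosb* and *Egr3* are the lowest by each of these lengths.

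The order depended in part on the length used. Without division, *Jun* came before *Junb*, and *Egr1* rose to a place between *Dusp1* and *Ier2*. With merged exons, *Ier2* passed *Dusp1* and *Egr1* passed *Nr4a1*. Per kb of coding sequence, *Jun* led with 713, before *Atf3* with 710 and *Junb* with 596, because *Jun* and *Atf3* have long untranslated parts. *Fosb* and *Egr3* were the last in order by mean count and by all 3 lengths.

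A mean above 0 was listed for 26681 genes, and 24876 of these had an annotated length. The median of those genes was 46.2 normalized counts per kb, and 8 of the 10 members lay above it. Among the 18017 protein-coding genes the median was 100 per kb, and 6 members lay above it: *Junb*, *Jun*, *Atf3*, *Dusp1*, *Ier2* and *Fos*. *Junb* exceeded 83.9% of the 24876 genes, *Fos* 62.6%, *Egr1* 56.4%, *Fosb* 26.1% and *Egr3* 16.3%. Without division by length, *Junb* exceeded 73.5% of the same genes, *Fos* 57.9%, *Egr1* 63.3%, *Fosb* 36.4% and *Egr3* 27.1%. The count above the median was then 8 of 10 among all genes and 5 of 10 among protein-coding genes.

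**Figure D3:**
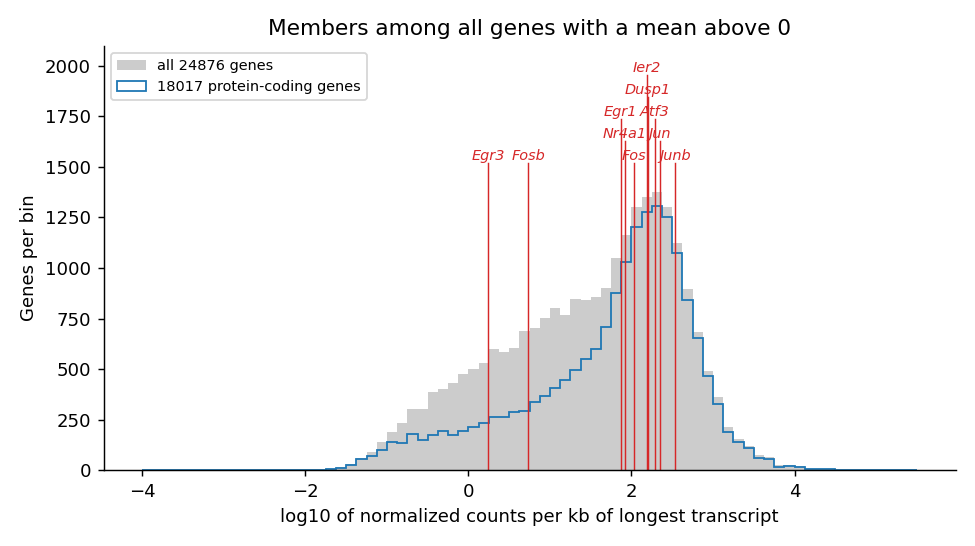
Members within the distribution of all genes with a mean above 0. The x axis is the log10 of normalized counts per kb of longest transcript and the y axis the number of genes per bin; red lines mark the 10 members, of which 8 lie near the mode of the protein-coding genes and *Fosb* and *Egr3* in its lower tail.

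Relatives of the members set these levels in context, since a family can be represented mainly by a gene that is less inducible. In the Jun family, *Jund*, a subunit known for steady expression, held 50.4% of the summed level per kb, *Junb* 29.9% and *Jun* 19.7%. In the Fos family, *Fosl2* and *Fos* held 48.6% each, *Fosb* 2.45% and *Fosl1* 0.369%. The balance of *Fosl2* and *Fos* turned on the length, since *Fos* held 55.7% with merged exons, 21.1% per coding sequence and 23.8% of the undivided means. *Jun* exceeded *Junb* per coding sequence, with 31.8% against 26.6%, and undivided, with 31.2% against 26.9%. The summed Jun family exceeded the summed Fos family 5.14 times per kb, 6.15 times with merged exons, 2.38 times per coding sequence and 2.40 times between undivided means. The values of *Jund* and *Fosl1* are uncertain, because 49.9% and 45.5% of their 31-base words occur in no other gene.

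Other families differed in whether the member led. *Egr1* held 76.3% of the Egr family, followed by *Egr2* with 21.5%, *Egr3* with 1.81% and *Egr4* with 0.322%. In the Nr4a family, *Nr4a3* had 92.7 per kb and *Nr4a1* 83.1 per kb, or 46.3% and 41.5% of the sum, and *Nr4a2* had 12.1%. The share of *Nr4a1* was 27.0% per coding sequence and 25.6% undivided, with *Nr4a3* at 61.9% and 64.0%. The Ier genes were grouped by name alone, and whether *Ier3* is related to the others was not checked. *Ier2* held 17.7% of them, after *Ier3* with 41.2% and *Ier5* with 35.7%. *Ier5* came before *Ier3* per coding sequence, with 45.8% against 35.1%, and also without division by length. *Dusp1* held 6.27% of the 5 phosphatase genes, whereas *Dusp6*, another MAP kinase phosphatase, held 53.3% and *Dusp4* 37.3%. *Atf3* was below its close relative *Jdp2*, at 194 against 345 per kb. These families were put together after the values had been seen.

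**Figure D4:**
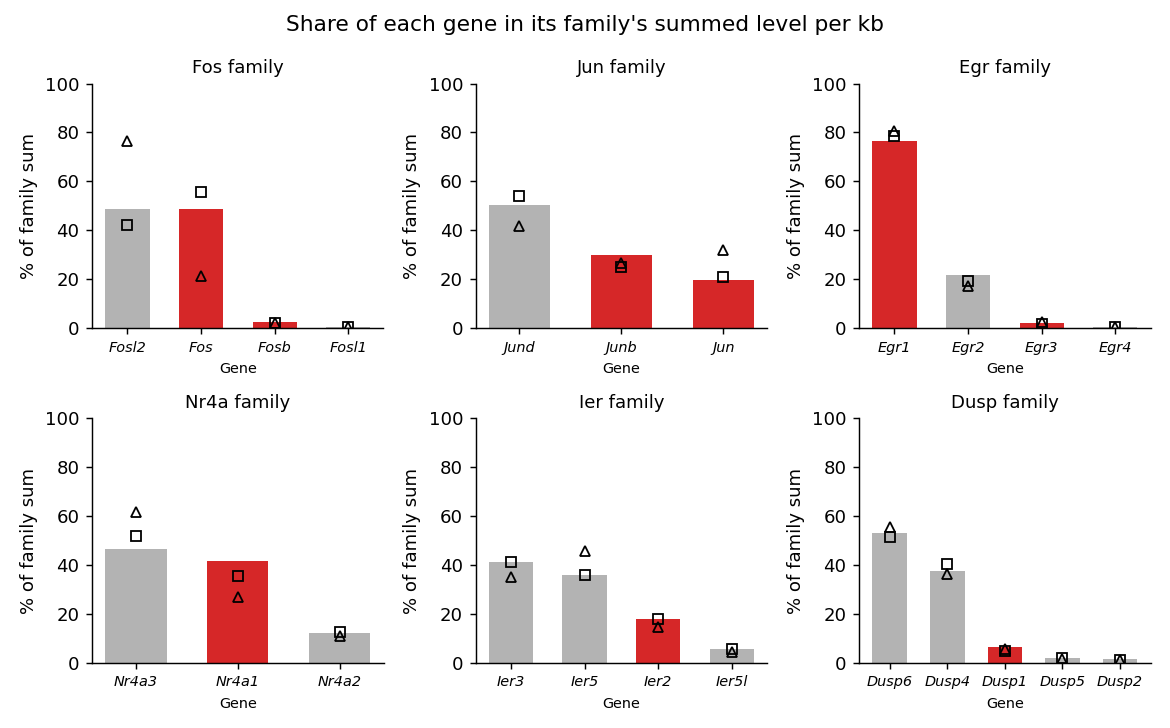
Share of each gene in the summed level per kb of its family, in percent, with members in red and relatives in grey. The Ier genes are grouped by name alone. Bars use the longest transcript, squares merged exons and triangles coding length; *Egr1* leads its family by each of these lengths, whereas *Dusp1* holds 6.27% of its family and *Fosb* 2.45%.

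Further genes of the response were taken from lists. Of 13 other immediate early transcription factors, 8 lay above the median of all genes per kb and 6 above that of protein-coding genes, and the list median was 92.7 per kb, against 130 for the 10 members. Without division by length the direction turned, since the medians were then 499 for the 13 genes and 282 for the members. *Klf6*, a zinc-finger factor, led with 721 per kb, before *Ier5* with 309 and the endothelial factor *Klf2* with 295. Without division *Klf6* and *Ier5* came first again, but *Per1* with a mean of 749 and *Klf10* with 626 came before *Klf2* with 545. Of 27 immediate early genes that are not transcription factors, 23 lay above the median of all genes and 19 above that of protein-coding genes, and the list median was 182 per kb. *Ctgf*, a matricellular protein gene, had 4294 per kb, *Dusp6* 1336 and *Dusp4* 937. *Junb* was exceeded by 8 of these 27 genes and by 1 of the 13 per kb, and by 11 and 4 between undivided means. Of 11 AP-1 partners and relatives, 9 lay above the first of these medians and 8 above the second, and *Atf4*, *Jund* and *Jdp2* had 1169, 574 and 345 per kb.

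Of 22 kinases and factors, 22 lay above the median of all genes per kb and 18 above that of protein-coding genes, with a list median of 232. *Map2k1*, a MAP kinase kinase, had 1293 per kb, and *Mapkapk2*, a kinase downstream of p38, had 782. Per kb, *Junb* was exceeded by 8 of the 22 and *Egr1* by 19, and between undivided means by 14 and 19.

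Marker lists describe the tissue. Markers of RPE had a median of 14034 per kb, with *Ttr* at 83745 and *Rpe65* at 23481, although *Best1* was at 33.6. Melanocyte markers had a median of 23801, but these pigment genes are also expressed by the RPE and cannot tell the 2 cell types apart. The medians were 7062 for fibroblast markers, 979 for macrophage markers and 650 for endothelium markers. Lists drawn up for cells outside the layer were also high: rod photoreceptor markers had a median of 4012, skeletal muscle markers 8615 and lens markers 791 per kb. Whether cells of the layer also express some of these genes was not tested. The members' levels are those of this mixture, their part in each cell type was not tested, and fewer cells of a type cannot be told from less RNA per cell. The 7 reference genes differed widely per kb, from 38.0 for *Tbp* to 15802 for *Actb*, a cytoskeletal gene. *Hprt* had 1204, *Pgk1* 502, *Polr2a* 416, *Ppia* 87.1 and *Gapdh*, a glycolytic gene, 48.1. Of the 31-base words of *Pgk1*, *Gapdh* and *Actb*, 45.3%, 71.9% and 76.4% occur in no other gene. The value of *Gapdh* is uncertain, because it shares words with 330 genes and was divided by a transcript of 3289 bases.

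Few sequence words of the members occurred in other genes. All 31-base words of *Fos*, *Egr1*, *Ier2*, *Atf3*, *Nr4a1* and *Dusp1* were found in no other gene of GENCODE M21, and *Egr3* had 99.5% of its words to itself. *Jun* had 93.6% of its words to itself and shared the rest with *Junos*, its antisense gene, which overlaps it by 689 bp. *Junb* had 93.5% and shared the rest with *Prdx2*, a peroxidase gene on the opposite strand, which overlaps it by 351 bp. The annotated span of *Dusp1* overlaps a sense-intronic RNA gene by 1853 bp and a pseudogene by 227 bp on its own strand, and *Gm8225* by 956 bp and *Ergic1* by 640 bp on the other, although it shared no words with them. The kit marks strand, but whether the counting used it is not given in the sources used here.

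The members were compact genes, a feature that their choice by name did not use. Their median span was 5287 bp, against 21533 bp for 18017 protein-coding genes, and 8 of 10 lay below that median. *Atf3* and *Nr4a1* spanned 47744 and 20527 bp as annotated. For both, the RefSeq start site used for the promoter window lies well inside that span. *Dusp1* spanned 56539 bp as annotated, through transcripts that reach far upstream. The coding transcripts of *Jun*, *Junb* and *Ier2* had a single exon, as did those of 4.38% of the protein-coding genes. *Egr1* and *Egr3* had 2 exons, *Fos*, *Fosb*, *Atf3* and *Dusp1* had 4, and *Nr4a1* had 8, so that 9 of 10 lay below the median of 8 exons. Mature transcripts were closer to the rest, with a median of 2433 bases against 3121. The 10 genes lie on 9 chromosomes, and *Ier2* and *Junb* are both on chromosome 8, with 311631 bp between them.

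**Figure D5:**
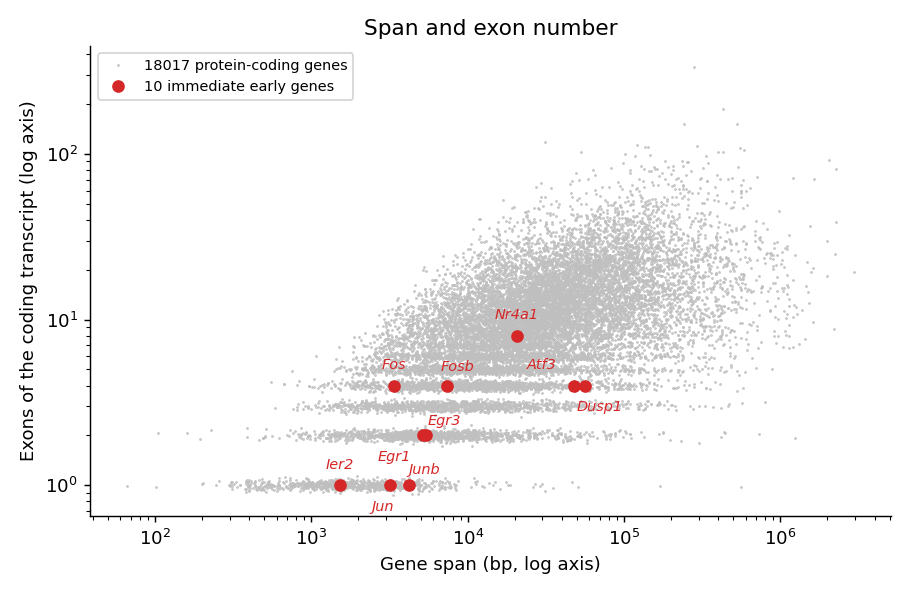
Gene span in bp against the number of exons of the coding transcript, both on log axes. Each grey dot is 1 of 18017 protein-coding genes, spread slightly in exon number so that dots do not hide each other, and red circles are the 10 members, 8 of which lie below the median span of 21533 bp.

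AU-rich motifs were frequent in the 3' UTRs. The pentamer ATTTA occurred in the 3' UTR of 9 of the 10 members and of 66.6% of 16352 genes with a 3' UTR of at least 100 bases. *Ier2* was the member without it, in 755 bases. Per kb of 3' UTR, the members had a median of 2.95 pentamers and the genes 1.26, and 8 of 10 members lay above the latter. *Dusp1* had 5.80 per kb, *Nr4a1* 5.52, *Fos* 4.91 and *Fosb* 0.466. The nonamer TTATTTATT, a longer form of the element, occurred in 2 members and in 7.33% of the genes. Its sites in *Fos* and *Dusp1* are shown in capitals with 10 bases on each side, on the strand of the gene (GRCm38).
Fos, 654 bases after the stop codon, chr12:85477103-85477131: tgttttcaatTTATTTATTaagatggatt
Dusp1, 102 bases after the stop codon, chr17:26506159-26506187: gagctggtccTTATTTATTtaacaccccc
Dusp1, 391 bases after the stop codon, chr17:26505870-26505898: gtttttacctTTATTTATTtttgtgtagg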

How the data were processed

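The authors trimmed paired reads with BBDuk, mapped them with STAR to Ensembl transcripts (GRCm38), estimated TPM with Sailfish and turned them into normalized counts by total count, per the labels and the methods of the study. The deposited table holds 1 row per gene and 0 columns that name a sample. Its baseMean, a normalized signal averaged by the authors over all 6 libraries, was used. The other 5 columns of values hold the authors' own DESeq2 comparison of the ages (fold change, standard error, score, p and adjusted p) and were not used. Depth per library is unknown here, and the planned test of aged against young mice could not be run.

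Symbols were matched to GENCODE M21 (GRCm38): 28514 directly and 2416 through RefSeq synonyms. A percentile is the percent of genes with a lower level per kb. Motifs were counted on both strands in RefSeq promoter windows, and on the transcript strand in 3' UTRs. The motifs were picked with the values in view. The functions for percentiles and for promoter motifs were tested on simulated data, and the other steps were not tested in this way. Python 3.11.15 and pandas 2.3.3 were used. Named genes are all members, the 3 highest genes per kb of each other list, reference genes and tissue markers, except 1 gene that is not reported here. Relatives of the members, *Per1*, *Klf10*, *Junos*, *Prdx2*, *Gm8225* and *Ergic1* are named outside this rule, after their values were seen. Members and lists were chosen with earlier results of these data known. No value was tested, so no feature is called particular to the members.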

Additional observations from a re-analysis of the deposited data

How the results depend on the processing

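The median percentile of the 10 members per kb was 65.9 among all genes with a mean above 0. It was 72.5 with genes at 0 included, 67.0 with merged exon length and 60.8 with no division by length, a setting added with the values in view. It was 51.1 among genes with a mean of at least 10, 55.7 among protein-coding genes and 53.7 with coding length, which also compares coding genes alone. The number of members above the median gene, 8, was 5 with the filter and 5 with coding length. By construction, the filter leaves out genes with low values. Under it, *Junb* stood at percentile 76.9, *Fos* at 46.5, *Egr1* at 37.7, *Fosb* at 2.76 and *Egr3*, itself below the filter, at 0.0865. With genes at 0 included, *Fosb* stood at 40.5 and *Egr3* at 32.7. Single percentiles moved by over 10 points for 9 members under the filter, 4 with coding length, 4 without division by length, 3 among protein-coding genes, 2 with genes at 0 included and 0 with merged exons. The members' median transcript length stood at percentile 35.0, and at 29.3 and 40.4 under its alternatives. No paired analysis was possible because only 1 mean over the 6 libraries is given for each gene. The replicate block, leaving out single libraries, other tools, normalizations and pseudocounts could not be run without values for each mouse.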
